A study of Mus musculus with 2 samples.

Results

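Broad methylated peaks are the stretches of at least 800 bp that the authors' peak lists mark as methylated in epididymal white adipose tissue from male mice of the C57BL/6J strain. They were taken from the 19 autosomes by width alone, as end minus start of 800 bp or more. The chow list (STD) held 1896 of them among 165326 autosomal peaks, and the high-fat list (HFD) held 1671 among 174654. Together these are 3567 of 339980 peaks. Width chose the members, so all values of width below are descriptions.

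The fat pad is a visceral depot beside the testis, and C57BL/6J is an inbred strain that gains weight on fatty food. Mice entered the study when 4 weeks old and ate either ordinary chow or a diet with 60% of its calories as fat, for 5 months. Methylated DNA was captured with an antibody and sequenced (MeDIP-seq), with 1 library for each diet, and the number of mice behind a library is not given in the sources used here. Without replicates there is no test between diets. Each interval in brackets is an exact 95% binomial (Clopper-Pearson) interval, or the interval of a ratio derived from one, and covers counting error only, with peaks treated as independent.

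DNA methylation in mammals sits mainly on the cytosine of CpG pairs, which are sparse over most of the genome and dense in CpG islands. Most CpG islands at promoters are unmethylated, while repeats, gene bodies and the silenced copies of imprinted control regions are typically methylated. The MeDIP antibody binds single-stranded fragments better the more methylated cytosines they carry, so enrichment reflects both the methylation and the number of CpGs. How a caller joins enriched bases into 1 peak, and whether it bridges short breaks, is a setting that is not given in the sources used here. Peaks of 300 to 400 bp served as the reference class, with 69413 STD and 67856 HFD members.

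The broad peaks were a small minority of each list. They made up 1.15% of the STD peaks and 2.96% of their covered bases, against 0.957% and 2.56% in the HFD list. In covered length this was 1.80 Mb with chow and 1.60 Mb with the high-fat diet. The median broad peak was 898 bp with chow (quartiles 839 and 1006 bp) and 902 bp with the high-fat diet (841 and 1008 bp). Most of them thus lay close above the limit, and the longest reached 2235 bp and 2600 bp. Around the limit, 144 STD and 145 HFD peaks measured 790 to 799 bp, and 126 and 104 measured 800 to 809 bp.

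There were fewer broad peaks in the HFD list, although that list was the longer. The HFD over STD ratio of their number was 0.881 (0.825 to 0.942). From 800 to 899 bp, 821 peaks in the HFD list stood against 958 in the STD list (ratio 0.857, 0.780 to 0.942). At 1000 to 1199 bp the numbers were 306 and 345, and at 1200 to 1499 bp they were 113 and 117. The interval of the ratio included 1 in each of the classes from 900 bp upward. The lower HFD number was not particular to broad peaks. Below the limit the ratio was 0.913 (0.858 to 0.972) at 700 to 799 bp, 0.961 (0.922 to 1.002) at 600 to 699 bp, 0.943 (0.916 to 0.970) at 500 to 599 bp and 0.917 (0.901 to 0.934) at 401 to 499 bp. It was 0.978 (0.967 to 0.988) in the reference class, and only the peaks under 300 bp were more numerous in the HFD list (ratio 1.26). With a limit of 700 bp in both lists the ratio was 0.898 (0.859 to 0.940). After joining peaks across gaps of up to 100 bp it was 0.8998 (0.848 to 0.955), and both intervals lie below 1. With a limit of 1000 bp in both lists it was 0.898 (0.788 to 1.02), and this interval includes 1. The lists differ in their minimum width, 263 bp for STD and 255 bp for HFD. With the limit placed 537 bp above the narrowest peak of each list, which is 792 bp for HFD, there were 1789 HFD peaks and the ratio was 0.944 (0.884 to 1.01). The same offset of the HFD limit gave 0.958 (0.917 to 1.002) at 700 bp, 0.955 (0.840 to 1.09) at 1000 bp and 0.964 (0.910 to 1.02) after joining. All 4 intervals with the offset limit include 1, and all 4 values remain below it. The part of the minimum width in the lower HFD number was not tested.

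Of the 10 longest regions, 6 had widths within 100 bp of each other in the lists and 4 did not. The rule set for naming regions gave the 10 longest after overlapping broad peaks of both lists were joined. In 8 of these, 1 STD peak faced 1 HFD peak, the longest 3 of them on chromosomes 15, 1 and 8 with joined lengths of 2292, 2010 and 1919 bp. On chromosome 4, from 3016560 to 3018462 (mm9), the STD peak measured 1864 bp and the HFD peak 1837 bp. On chromosome 15, from 74915800 to 74917600, they measured 1748 and 1801 bp. The chromosome 4 region from 118219667 to 118221437 gave 1770 and 1761 bp. In all 6 of these regions the widths differed by less than 100 bp between diets. On chromosome 11, from 24063266 to 24065026, the gap was larger, with 1761 bp under chow and 1625 bp under the high-fat diet. On chromosome 9, from 56467300 to 56469049, the STD peak was 1708 bp and the HFD peak 1370 bp. The remaining regions were in pieces in 1 list. On chromosome 18, from 39933166 to 39934937, an STD peak of 1696 bp faced HFD peaks of 385 and 1227 bp. The region on chromosome 17 from 39979942 to 39982558 was the longest of all, with a single HFD peak of 2600 bp over STD peaks of 1209, 298 and 510 bp.

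Across chromosomes, broad peaks were spread less evenly than the reference class. Among STD peaks, chromosome 8 had the highest frequency, with 14.6 broad peaks per 1000 peaks (12.3 to 17.2), and chromosome 14 the lowest, with 8.19 (6.22 to 10.6). The value over all autosomes was 11.5. Among HFD peaks, chromosome 7 led with 15.5 per 1000 (13.2 to 18.2), chromosome 3 was last with 7.05 (5.48 to 8.93), and the autosomes together had 9.57. The highest value was 1.78 times the lowest in the STD list and 2.20 times in the HFD list. For peaks of 300 to 400 bp the same quotients were 1.05 and 1.04, but this class makes up 42.0% and 38.9% of the peaks it is counted against. Per Mb of the span the contrast was smaller. There the quotients were 2.28 (STD) and 2.30 (HFD) for broad peaks and 1.47 in both lists for the reference class. Counts of rare peaks scatter more, and most of the 19 chromosomes had intervals that included the autosomal value. The exceptions were chromosomes 8 (above), 12 and 14 (below) in the STD list, and 5, 7 and 8 (above), 3 and 13 (below) in the HFD list. Chromosome 8 alone stood above in both.

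**Figure D1:**
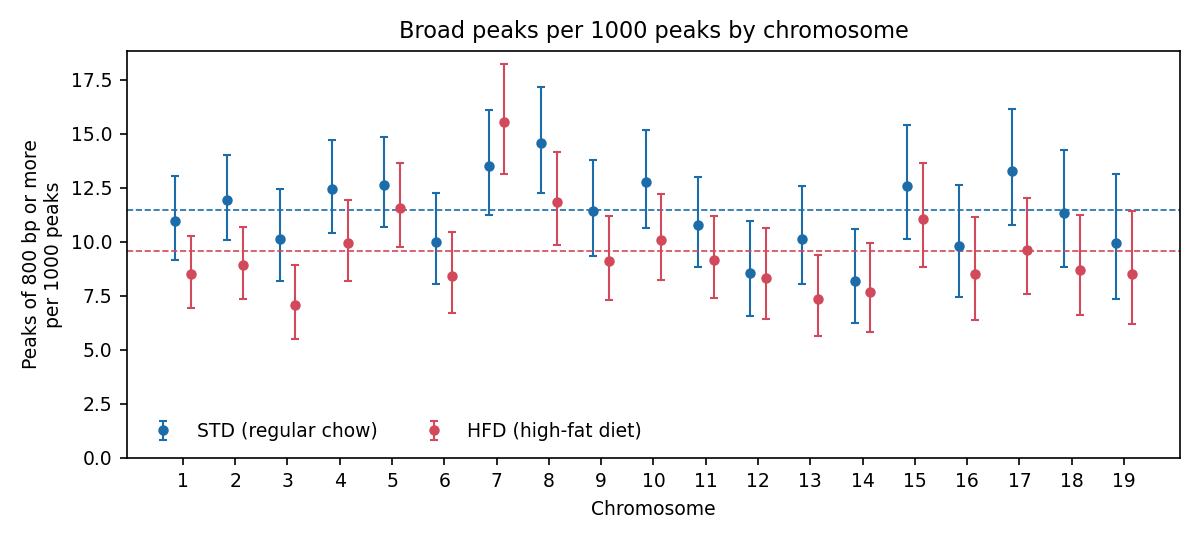
Broad peaks (800 bp or more) per 1000 peaks on each autosome (x axis), with exact 95% binomial intervals as bars and the value over all autosomes as dashed lines, for the STD (blue) and HFD (red) libraries. Chromosome 7 is the highest HFD value, at 15.5, and chromosome 8 the highest STD value, at 14.6.

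The chromosomal frequencies of the libraries resembled each other, with r = 0.76 across 19 chromosomes. This is a description, as the points share the same genome and the same calling. On 17 of the 19 chromosomes the HFD list had fewer broad peaks than the STD list. Chromosome 12 had 62 STD and 63 HFD broad peaks. Chromosome 7 went the other way more clearly, with 123 STD and 149 HFD broad peaks, a ratio of 1.21 (0.948 to 1.55). Its interval left out the autosomal 0.881 but included 1. It was the only chromosome whose interval left out the autosomal ratio, and among 19 intervals at 95% about that many can do so by counting error.

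Chromosome 7 also differed from most chromosomes in where its broad peaks lay. In the first 10% of its span, 15 of 591 STD peaks (25.4 per 1000) and 18 of 597 HFD peaks (30.2 per 1000) were broad. In the next 10%, there were 32 broad STD peaks among 1109 and 38 broad HFD peaks among 1142. By contrast, its last 10% held 12 among 1347 and 15 among 1442, or 8.91 and 10.4 per 1000. Chromosomes 9, 18 and 19 also had a higher frequency in the first 10% than in the last in both lists. They held at most 10 broad peaks each in that first 10%. Chromosome 18 had 2 broad STD peaks in the first and 1 in the last, and 3 and 1 broad HFD peaks. On chromosome 9 the values were close, at 13.6 and 12.8 per 1000 (STD) and 13.1 and 11.9 per 1000 (HFD). On chromosome 8 the last 10% held 30 of 1719 STD peaks and 34 of 1778 HFD peaks, or 17.5 and 19.1 per 1000. Its first 10% held 17 of 1084 and 15 of 1114, or 15.7 and 13.5 per 1000, so the STD values were close. Chromosome 2 had 7 broad peaks among 1049 STD peaks in its first 10% and 46 among 2025 in its last (22.7 per 1000). Its HFD numbers were 5 among 1115 and 25 among 2141 (11.7 per 1000), so the distal value was lower there than in the STD list.

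Taken over all autosomes, broad peaks became more frequent toward the distal end, where mouse chromosomes, which have their centromere at the proximal end, reach their long-arm telomere. In the first 10% of the span, 124 STD peaks were broad, or 9.82 per 1000 (8.18 to 11.7), and in the last 10% 334, or 13.4 per 1000 (12.02 to 14.9). The HFD list went from 116 broad peaks and 8.80 per 1000 (7.28 to 10.6) to 320 and 12.3 per 1000 (10.97 to 13.7). Per 1000 peaks, the last 10% exceeded the first by a factor of 1.36 (1.11 to 1.69) with chow and 1.39 (1.12 to 1.74) with the high-fat diet. The reference class stayed level, at 1.005 and 0.999 times, but it makes up 42.0% and 38.9% of the peaks it is counted against. The distal shift was not particular to broad peaks. The last 10% held 14.8% (STD) and 14.7% (HFD) of peaks of 300 to 400 bp and 18.8% and 17.2% of those of 700 to 799 bp. For broad peaks it held 17.6% and 19.2%. In plain numbers, broad peaks were 2.69 (STD) and 2.76 (HFD) times as many in the last 10% as in the first, while peaks of 300 to 400 bp were 1.98 times as many in both lists. The last 10% had the higher frequency on 15 of 19 chromosomes in the STD list and 13 of 19 in the HFD list. Between the ends the frequency showed no steady slope, and both lists had their highest values in the last 20% of the span. Without chromosome 7 the factors were 1.51 and 1.59. The increase depended on how the ends were drawn: with the first and last 5% of the span the factors were 1.20 (0.902 to 1.61) and 1.33 (0.992 to 1.80), and both intervals include 1. With the first and last 10 Mb they were 1.32 (1.05 to 1.67) and 1.41 (1.12 to 1.80). For peaks of at least 1000 bp, however, they were 1.23 (0.797 to 1.93) and 0.953 (0.623 to 1.48), so with 491 and 441 such peaks no distal increase was detectable, and the HFD value lay on the other side of 1.

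**Figure D2:**
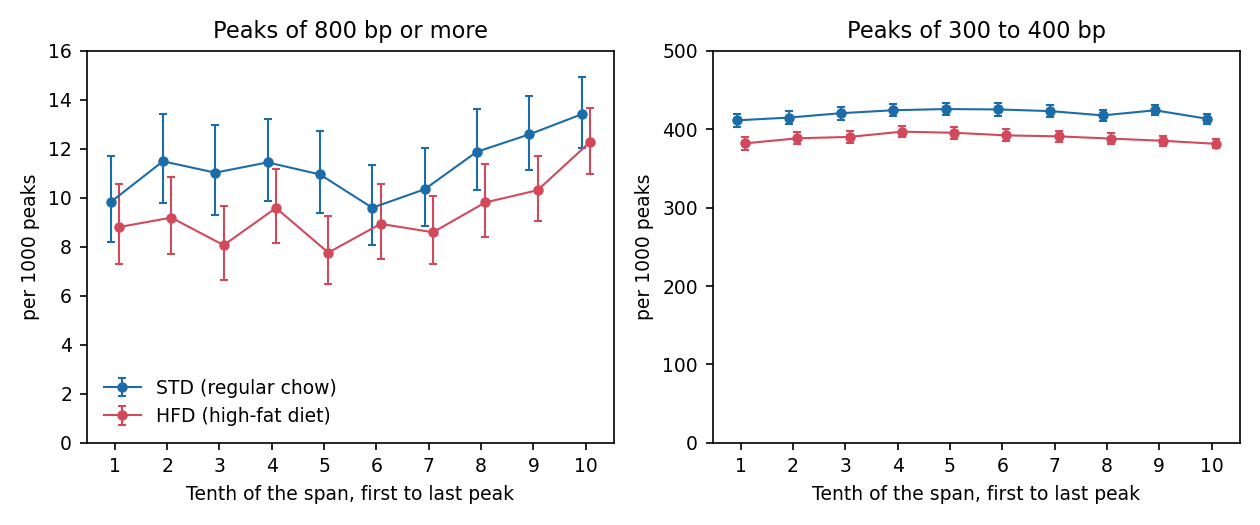
Peaks of 800 bp or more (left) and of 300 to 400 bp (right) per 1000 peaks in each 10% step of the autosomal span (x axis, proximal to distal), with exact 95% binomial intervals, for STD (blue) and HFD (red). Broad peaks reach 13.4 and 12.3 per 1000 in the last step, while the reference class, itself a large part of all peaks, stays level.

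Broad peaks lay in surroundings that were richer in peaks, counted over all widths, than those of the reference class. The median broad peak had 12 other peaks of its list within 50 kb in both libraries, against 10 (STD) and 11 (HFD) for peaks of 300 to 400 bp. At 500 to 599 bp the medians were already 11 and 12, so this was not particular to broad peaks. Where at most 4 peaks lay within 50 kb, 7.79 per 1000 STD peaks (6.78 to 8.89) and 6.40 per 1000 HFD peaks (5.47 to 7.43) were broad. Where 15 to 19 lay within 50 kb, the frequencies were 15.2 (13.9 to 16.7) and 11.97 (10.9 to 13.1). With 20 or more, the lists went different ways, to 14.1 (11.3 to 17.5) for STD and 15.3 (12.7 to 18.2) for HFD, and the STD interval spans the value of the class before. The reference class moved little with this density, between 415 and 422 per 1000 across the STD classes and between 377 and 393 per 1000 across the HFD classes. Here too it makes up a large part of the peaks it is counted against.

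The nearest surroundings showed the opposite. Between 1 and 4 kb from the edge of a broad peak, other peaks were sparse. For STD, 5.29 other peaks per kb of flank lay in this zone for every 100 broad peaks, against 12.4 at 5 to 15 kb, a quotient of 0.426 (0.391 to 0.464). The HFD values were 5.496 and 13.0, with a quotient of 0.422 (0.386 to 0.462). Around peaks of 300 to 400 bp the quotients were 0.811 and 0.786. Sparseness grew with width in both lists: the quotient was 0.507 and 0.490 at 700 to 799 bp, 0.452 and 0.450 at 800 to 999 bp, and 0.354 and 0.346 from 1000 bp upward. The zone ended abruptly. In steps of 0.5 kb, 5.01 STD peaks per 100 broad peaks lay at 3.5 to 4 kb, 6.65 at 4 to 4.5 kb and 12.3 at 4.5 to 5 kb. The HFD series was 4.91, 8.26 and 11.6. The edge lay at the same distance on both sides of the broad peaks, with 69 STD peaks to the left at 4 to 4.5 kb and 106 at 4.5 to 5 kb, and 57 and 127 to the right. Peaks of the other diet's list were also sparse there, with a quotient of 0.470 for HFD peaks around broad STD peaks and 0.471 for STD peaks around broad HFD peaks. A weaker step stood at the same place around the reference class, from 8.53 to 10.6 STD peaks per 100. The part of peak calling in this spacing was not tested, as the lists name no caller.

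**Figure D3:**
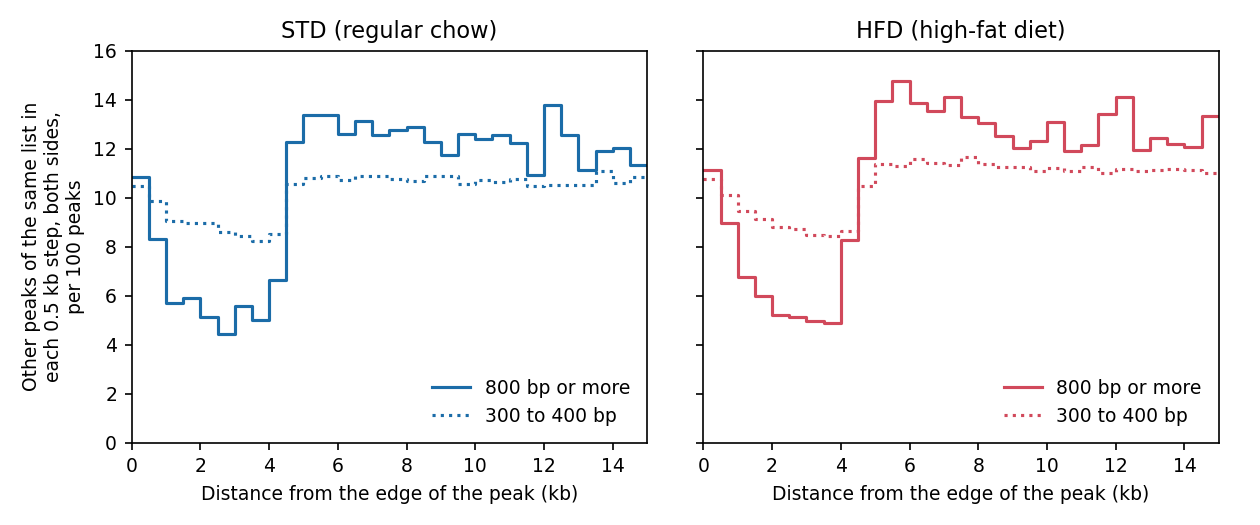
Other peaks of the same list found in each 0.5 kb step outward from the edge of a peak (x axis, kb, both sides summed), per 100 peaks of 800 bp or more (solid) or 300 to 400 bp (dotted), for STD (left) and HFD (right). Around broad peaks the number is low from 1 to 4 kb and steps up near 4.5 kb in both libraries.

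Within 500 bp, by contrast, neighbours were about as frequent as for the reference class. A peak of the same list lay within 500 bp of 10.5% of the broad STD peaks (9.15 to 11.96) and 10.8% of the broad HFD peaks (9.38 to 12.4), against 10.2% and 10.5% for peaks of 300 to 400 bp. The median gap to the nearest peak was longer for broad peaks, at 4.92 kb (STD) and 4.69 kb (HFD), against 3.45 and 3.37 kb. A gap of 5 to 10 kb was found for 32.9% of the broad STD peaks and 32.1% of the broad HFD peaks, against 20.6% and 21.2% of the reference class.

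Broad peaks were somewhat more often near another broad peak than peaks of 300 to 400 bp were, but most had no other broad peak within 50 kb. The nearest peak of the same list was itself broad for 28 of the 1896 STD peaks, or 1.48% (0.984 to 2.13), where the share over all autosomal STD peaks was 1.01%. In the HFD list it was 28 of 1671, or 1.68% (1.12 to 2.41), with 0.855% over all peaks. These shares rest on few peaks, and the STD interval includes the share over all peaks. Within 50 kb, another broad peak was found for 15.2% of the broad STD peaks (13.7 to 16.9) and for 11.4% of the reference class. For HFD the shares were 13.3% (11.7 to 15.01) and 10.3%. Within 500 kb they were 68.2% against 61.6%, and 66.5% against 57.2%. The excess was thus 1.33 and 1.29 times at 50 kb and 1.11 and 1.16 times at 500 kb. Broad peaks lay in peak-rich surroundings, and the shares were not adjusted for that. The median gap from a broad peak to the next broad peak of its list was 274 kb (STD) and 293 kb (HFD).

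The densest windows of 1 Mb were few. Of 2412 windows with a peak, 1093 held a broad STD peak and 1005 a broad HFD peak, and 200 and 154 held 3 or more. The richest, from 80 to 81 Mb on chromosome 10, had 10 broad peaks among 153 STD peaks and 12 among 159 HFD peaks. Its neighbour from 79 to 80 Mb had 6 and 7. From 37 to 38 Mb on chromosome 18 there were 10 and 7, and from 114 to 115 Mb on chromosome 5 there were 10 and 5. In the fifth place, 4 windows tied with 12 broad peaks over both lists: 25 to 26 Mb on chromosome 7 and 76 to 77 Mb on chromosome 15 with 6 in each list, and 21 to 22 Mb and 115 to 116 Mb on chromosome 9 with 7 and 5. The number of broad peaks per window was correlated between the lists at r = 0.71 over 2412 windows, again as a description, since windows share their sequence and neighbours. It was also correlated with the number of all peaks per window, at r = 0.565 (STD) and 0.549 (HFD). The value between the lists was not adjusted for that.

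At a finer scale, the 2668 regions that hold a broad peak in either list were grouped where they lay within 20 kb of each other. By this measure 279 regions (10.5%) had another region within that distance, 122 of the groups being pairs and 10 holding 3 or more regions. No share for the reference class or for all peaks was computed at this distance. The number therefore describes the grouping and does not show an excess. The largest group ran over 35.9 kb on chromosome 18, from 37100027 to 37135920. It held 5 regions, with STD peaks of 936, 889, 859, 1053 and 1232 bp and HFD peaks of 981, 1011 and 1063 bp. On chromosome 7, 4 regions stood within 38.0 kb from 4944891 to 4982929, among them an STD peak of 1603 bp. A group of 4 on chromosome 8, from 46095154 to 46137405, held STD peaks of 890, 1143, 1008 and 966 bp and HFD peaks of 846, 1248 and 906 bp. The group of 4 on chromosome 10, from 80785273 to 80810277, lay in the richest window and had 2 broad STD and 4 broad HFD peaks. Finally, 3 regions on chromosome 3, from 108199072 to 108216326, were broad in both lists, at 854, 915 and 1172 bp with chow and 1029, 886 and 1192 bp with the high-fat diet.

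Almost all broad peaks were found with both diets. An overlap of at least 1 bp with a peak of the other list was present for 1880 of the 1896 STD peaks, or 99.2% (98.6 to 99.5), against 73.6% of all autosomal STD peaks. For HFD it was 1651 of 1671, or 98.8% (98.2 to 99.3), against 69.8% of all. Among peaks of 300 to 400 bp the shares were 78.7% and 77.7%. A longer peak is met by chance more easily, so the midpoint, which has no length, was used as well. It fell inside a peak of the other list for 87.8% of the broad STD peaks (86.2 to 89.2) and 89.0% of the broad HFD peaks (87.4 to 90.5). Over all peaks this share was 72.3% and 68.8%, and in the reference class it was 78.3% and 77.3%. By this measure the gain with width ended early: from 401 to 499 bp the midpoint shares were already 89.96% and 88.2%, and in the classes above they ranged from 86.8% to 93.1% (STD) and from 87.0% to 95.5% (HFD).

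Most of the midpoints that fell outside belonged to split peaks. Of 232 broad STD peaks with the midpoint outside, 133 were split, 83 had 1 partner to the side and 16 had none. Of 184 broad HFD peaks, the numbers were 101, 63 and 20. Where a single partner missed the midpoint, it was short, with a median of 374 bp (HFD partners) and 359 bp (STD partners).

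**Figure D4:**
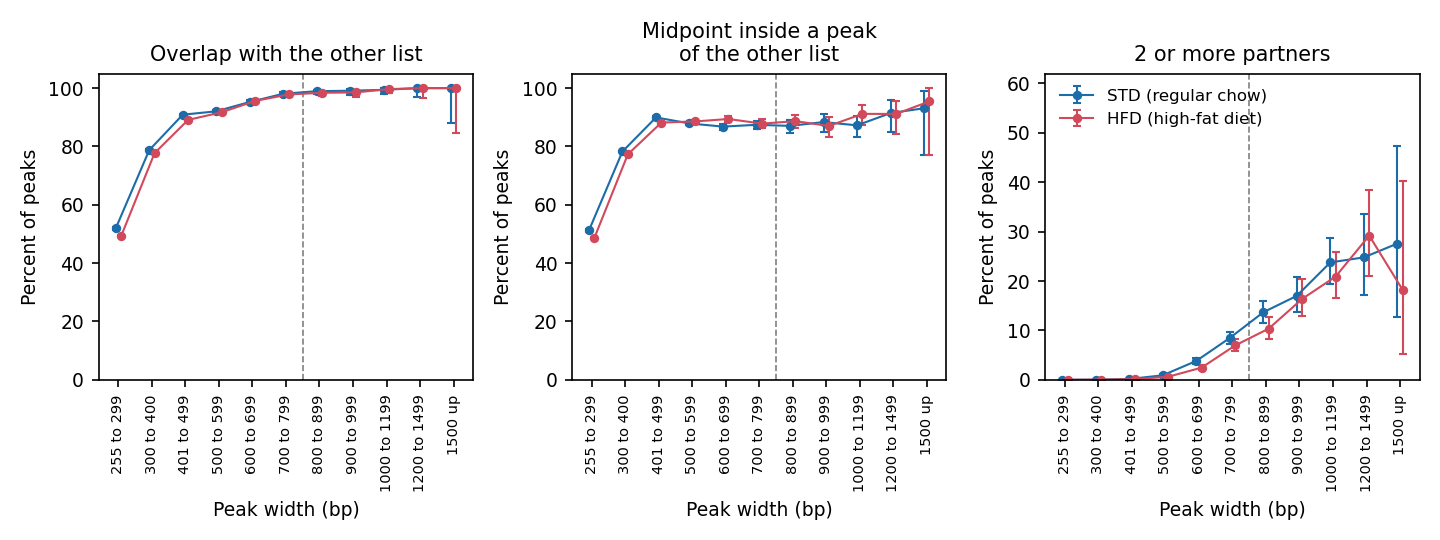
Percent of peaks in each width class (x axis, bp) that overlap a peak of the other list (left), have their midpoint inside one (middle) or overlap 2 or more (right), with exact 95% binomial intervals, for STD (blue) and HFD (red); the dashed line marks 800 bp. Overlap is near 100% for broad peaks, the midpoint share stays between 86.8% and 95.5% from 401 bp upward, and splitting goes up with width to 1499 bp.

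Many broad peaks had a partner that was not itself broad. A broad partner is by definition no more frequent than a partner of any width. A partner that was also 800 bp or more was found for 899 broad peaks of either list, which is 47.4% (45.1 to 49.7) of those in the STD list and 53.8% (51.4 to 56.2) of those in the HFD list. Over all autosomal peaks 1.15% and 1.27% had such a partner. The widest partner measured 500 to 799 bp for 646 STD and 519 HFD peaks, and under 500 bp for 335 and 233. A partner of 700 to 799 bp, just short of the limit, accounted for 14.5% and 14.8% of the broad peaks. The share with a broad partner was larger the broader the peak, at 35.0% and 42.3% for 800 to 899 bp and 76.9% and 76.1% for 1200 to 1499 bp. Of the longest peaks, from 1500 bp, 93.1% of 29 STD and 100% of 22 HFD peaks had one. With an equal count of the widest peaks taken from both lists (1671, which puts the STD limit at 816 bp), the share was 50.4% in both.

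Of the bases in broad peaks, 82.8% (STD) and 84.9% (HFD) were covered by the other list, and in the reference class 70.3% and 70.9%. The median broad peak was covered to 88.6% and 90.9%. Under 50% of the length was covered for 7.33% and 6.46% of the broad peaks.

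Chromosome 7 had the largest share of broad STD peaks with a broad HFD partner, 85 of 123 or 69.1% (60.1 to 77.1). Among the other chromosomes this share lay between 37.8% on chromosome 17 and 56.5% on chromosome 15. Seen from the HFD list, the share on chromosome 7 was 57.0% (48.7 to 65.1) of 149 broad peaks, within the range of the other chromosomes (45.3% on chromosome 16 to 61.2% on chromosome 15). Along the span, the last 10%, where broad peaks were most frequent, had 46.4% (STD) and 47.8% (HFD) with a broad partner, near the 46.0% and 49.1% of the first 10%.

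Joined by overlap, the 2668 regions fell into a few forms. In 2050 (76.8%), 1 STD peak faced 1 HFD peak. A single STD peak faced 2 HFD peaks in 321 regions, and 2 STD peaks faced 1 HFD peak in 245. In 899 regions (33.7%) both lists had a broad peak, in 997 the STD list alone and in 772 the HFD list alone. No region held more than 1 broad peak of the same list. Of the 997 with a broad STD peak alone, 672 had 1 narrower HFD peak, 309 several and 16 none. For the 772 with a broad HFD peak alone, these numbers were 515, 237 and 20.

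In the 865 one-to-one regions that were broad in both lists, peaks matched closely. The median width was 940 bp with chow and 937 bp with the high-fat diet, and the HFD peak differed by a median of -6 bp (quartiles -50 and 41 bp). Midpoints lay a median of 27 bp apart, against 23 bp in one-to-one pairs with a mean width of 300 to 400 bp. Relative to the width this was 2.84% against 6.68%. Widths were within 10% of each other in 79.7% of these regions. A limit applied to both lists favours pairs that agree, so pairs were also chosen by their mean width. Among the 1200 pairs with a mean of 800 bp or more, midpoints were 34.8 bp apart (3.73% of the width), the HFD peak differed by -8 bp (-73.3 and 55 bp), and 63.8% of widths were within 10%. In the pairs of 300 to 400 bp the difference was -9 bp (-52 and 35 bp) and 40.5% were within 10%. Measured in bp, midpoints and width quartiles of the broad pairs were thus no closer than these. Their closer match holds only relative to width.

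Choosing by 1 list made the partner look narrower in either direction. HFD partners of broad STD peaks differed by a median of -65 bp, and broad HFD peaks differed from their STD partners by 42 bp. In the first case 74.3% of the HFD peaks were the narrower ones, and in the second 34.1% were. Each value depends on which list set the limit.

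**Figure D5:**
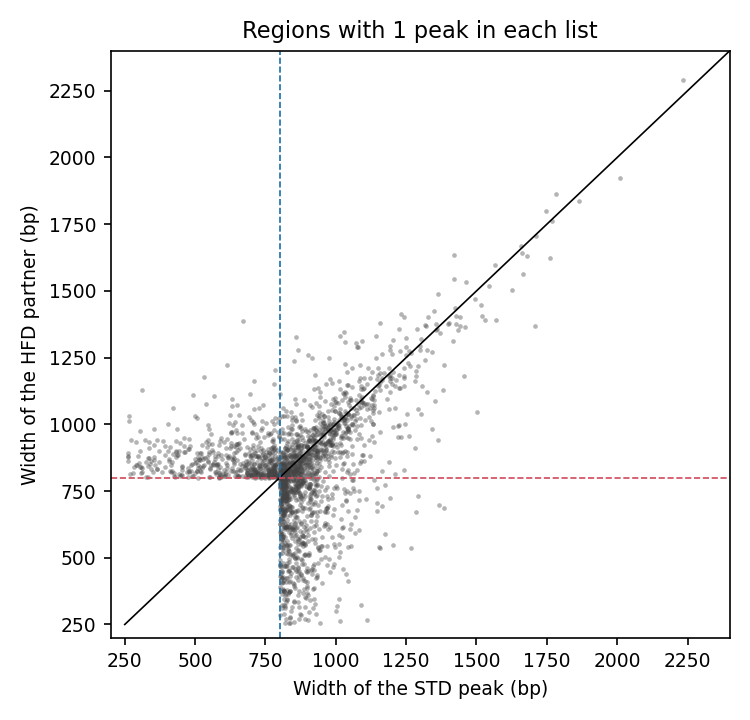
Width of the STD peak (x axis, bp) against width of its HFD partner (y axis, bp) for the 2050 regions with 1 peak in each list and at least 1 of them of 800 bp or more, marked by the dashed lines; the solid line is equality. Regions broad in both lists lie close to equality, and regions broad in 1 list reach down to the narrowest peaks of the other.

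Splitting into several partners was more frequent the wider the peak, below 800 bp as well as above. Of the broad STD peaks, 326 (17.2%, 15.5 to 18.97) overlapped 2 or more HFD peaks, against 0.509% of all autosomal STD peaks. Of the broad HFD peaks, 253 (15.1%, 13.5 to 16.95) overlapped 2 or more STD peaks, against 0.35% of all. In the reference class there were 25 and 22 such peaks (0.0360% and 0.0324%), as a peak of that length has little room for a second partner. The share went up with width, from 3.82% and 2.47% at 600 to 699 bp and 8.47% and 6.96% at 700 to 799 bp to 13.7% and 10.4% at 800 to 899 bp and 24.8% and 29.2% at 1200 to 1499 bp. From 1500 bp it was 27.6% of 29 STD and 18.2% of 22 HFD peaks. Narrower peaks are far more numerous, and of all 842 split STD and 612 split HFD peaks, 516 and 359 were under 800 bp. All but 8 of the split broad peaks had exactly 2 partners, namely 322 STD and 249 HFD peaks.

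The pieces of split peaks were close together. Between the 2 pieces the median gap was 115 bp for HFD pieces under an STD peak (quartiles 78 and 167 bp) and 107 bp for STD pieces under an HFD peak (77 and 168 bp). The shortest gap was 50 bp in both, which was also the smallest gap between neighbouring autosomal peaks anywhere in either list. A gap of at most 100 bp separated 42.5% and 43.8% of them. The wider piece had a median of 478 and 497 bp and the narrower 318.5 and 341 bp. Only 18 and 15 split peaks had a piece that was itself 800 bp or more. Joining peaks of 1 list across gaps of up to 100 bp raised the number of broad peaks to 2325 (STD) and 2092 (HFD), and 14.5% and 12.6% of these were still split.

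Peaks with 3 partners were 4 in each list. An STD peak of 1438 bp on chromosome 4 (155550208 to 155551645) lay over HFD peaks of 304, 262 and 516 bp, which covered 72.5% of it. On chromosome 6, from 122900948 to 122902189, an STD peak of 1242 bp faced HFD peaks of 443, 361 and 255 bp. In the other direction, the HFD peak of 1080 bp on chromosome 5 from 102344308 to 102345387 lay over STD peaks of 341, 286 and 343 bp. A chromosome 14 HFD peak of 1017 bp, from 119531176 to 119532192, lay over STD peaks of 263, 264 and 263 bp, all at or within 1 bp of the minimum width of that list. The chromosome 17 region described among the longest had the widest split peak.

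Broad peaks without any partner were rare, and none was longer than 1134 bp. The 16 STD peaks measured 802 to 1134 bp, with a median of 868 bp, and the 20 HFD peaks 800 to 1014 bp, with a median of 872.5 bp. The medians over all broad peaks were little higher, at 898 and 902 bp. The nearest peak of the other list was a median of 2.80 kb (STD) and 2.66 kb (HFD) away. It lay within 500 bp of 1 STD and 7 HFD peaks, and more than 10 kb from 3 of each. The widest autosomal HFD peak of this kind, on chromosome 3 from 88340076 to 88341089 (1014 bp), had an STD peak of 411 bp only 0.131 kb away. A chromosome 10 peak of 957 bp (12660931 to 12661887) had one of 305 bp at 0.385 kb. A chromosome 1 peak of 924 bp (120935563 to 120936486) had its nearest STD peak at 2.69 kb.

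Among the 5 widest STD peaks without a partner, that on chromosome 15 from 100618762 to 100619676 (915 bp) lay 0.067 kb from another STD peak and 0.815 kb from an HFD peak of 458 bp. It stood in a crowded stretch with 20 other STD peaks within 50 kb. The chromosome 11 peak from 103759422 to 103760334 (913 bp) had 18 STD neighbours within 50 kb and an HFD peak of 421 bp at 1.85 kb. The widest, the chromosome 4 peak of 1134 bp from 140838429, also had 18. The chromosome 2 peak of 1027 bp from 167641319 had 17, and the chromosome 1 peak of 937 bp from 33523570 had 6. The median broad peak had 12. The narrower STD peaks without a partner had between 5 and 15 such neighbours, most of them fewer than 12. On the HFD side, the chromosome 18 peak of 965 bp from 70581498 had 10 HFD neighbours and the chromosome 2 peak of 944 bp from 113918659 had 16. Among all HFD peaks without a partner the number ranged from 2 to 19, more often below 12 than above. Crowded surroundings were thus not a trait of these peaks as a set. With 36 such peaks among 3567, and unknown depth in both libraries, a missing partner is not thereby a loss of methylation.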

How the data were processed

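The data are 2 MeDIP-seq libraries, 1 for each diet, grouped by the diet in the labels. Per the submitters' processing notes, reads were aligned with BWA and the build was mm9. For the caller, its threshold, any control and any pooling, nothing is stated in those sources. Some callers estimate background from the surrounding reads and then call fewer weak peaks beside strong ones. Whether this holds here is not known. The authors deposited 1 list of peaks per library with 4 columns (chromosome, start, end, name), with no score or count, so depth is unknown. Positions are on mm9, counted from 1. No genome or annotation of that build was used, so no gene, repeat or sequence is given.

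Computation ran in Python 3.11.15 (numpy 2.4.6; pandas 2.3.3), with intervals from scipy 1.17.1 and plots from matplotlib 3.10.9. Numbers of broad peaks with a partner were identical with bedtools 2.31.1. The scripts were tested on simulated lists. Spans run from the first to the last peak of a chromosome, and windows and 10% steps were filled by midpoint. Named regions are the 10 longest, those with most partners, the 5 widest without a partner per list, and the 5 richest windows (with ties) and groups. The profile around peak edges, the view of chromosome 7 and the limits set above each list's minimum were chosen after seeing the data. Members and lists were chosen with earlier results of these data known. Alternatives were other width limits, overlap rules, merging, end definitions and bases.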

Additional observations from a re-analysis of the deposited data

Results flagged for a closer look

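Broad peaks were also present on chromosomes that the comparisons above left out. A number was flagged where it exceeds 3, the limit that a count of 0 allows. That limit is a rule for listing and does not test a difference from the autosomes. No control library was at hand. The STD number on the mitochondrial chromosome, 2, does not exceed the limit and is given beside the HFD number. On chromosome X, 21 of 1036 STD peaks and 20 of 1044 HFD peaks were 800 bp or more, which is 20.3 and 19.2 per 1000. The autosomal values were 11.5 and 9.57 per 1000. On chromosome Y there were 6 among 70 STD peaks and 5 among 69 HFD peaks. On the mitochondrial chromosome, 4 of 6 HFD peaks and 2 of 6 STD peaks were broad, up to 1288 and 1187 bp.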

How the results depend on the processing

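Of 87 recomputed values, 55 moved by less than counting error. A limit of 700 bp gave 1.58 for the highest over the lowest chromosome (HFD), 2.84% and 2.91% (STD, HFD) of broad peaks next to a broad peak (over all peaks 2.19% and 1.88%), 98.6% of STD peaks with a partner, 50.4% of STD peaks broad in both lists, and 12.6% and 10.7% split. At 1000 bp, with 491 and 441 peaks, these were 5.64 and 4.30 for the chromosomes, 0.407% and 0.227% next to a broad peak (all peaks 0.241% and 0.218%, and 2 and 1 such broad peaks), 99.6% and 99.8% with a partner, and 24.2% and 22.9% split. There the last over first 10% of the span in the HFD list reversed to 0.953, and the cause was not tested. Looking at both flanking peaks gave 3.27% and 3.11% next to a broad peak (all peaks 2.28% and 1.89%). These shares follow the number of peaks past the limit, so each is to be read against that over all peaks. Partners were found for 87.8% and 89.0% by midpoint and for 82.6% and 85.5% with reciprocal 50% overlap, a rule that nearly bars 2 partners by construction and left 0% split. Merging across 100 bp gave 14.5% and 12.6% split. Equal numbers of peaks gave 50.4% broad in both for either list, and by construction no ratio of numbers. The limit above each list's own minimum moved that ratio to 0.944, and likewise to 0.958 from 700 bp, 0.955 from 1000 bp and 0.964 after merging. With 5% ends the last over first factors were 1.20 and 1.33, with intervals that include 1. No paired analysis was possible because there was a single library for each diet, which also left no replicate to omit. As depth is unknown, a missing peak cannot be weighed.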
